A study of Mus musculus with 20 samples.

Results

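The circadian clock and its outputs in liver were followed through 28 genes of the 36106 in the counts table. They were chosen by name as core clock genes, modifiers of the clock proteins, PAR bZIP factors and other direct outputs. The gene for BMAL1 is listed in the files under its older symbol Arntl, and all 28 genes were found. All 28 also passed the filter on low counts; 16164 genes passed it in all.

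Male mice were either orchiectomized (ORX), which removes the testes and with them most circulating testosterone, or given a sham operation. They were then kept for 2 weeks in normoxia (Nx) or in intermittent hypoxia (IH), a repeated cycling of inspired oxygen used as a model of sleep apnea. Messenger RNA of whole liver was sequenced, and each library is 1 mouse. The groups are Sham_Nx (sham operation, normoxia, 4 libraries; mouse 1 was not analysed here), Sham_IH (sham operation, intermittent hypoxia, 5 libraries), ORX_Nx (orchiectomy, normoxia, 5 libraries) and ORX_IH (orchiectomy, intermittent hypoxia, 5 libraries). The strain, the age, the oxygen levels and the clock time at which livers were taken are not given in the sources used here.

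In mammals the transcription factors BMAL1 and CLOCK bind E-boxes and switch on the genes for PER and CRY, which return to the nucleus and block them. A second loop runs through REV-ERB proteins, which repress Bmal1 through ROR elements, and through RORs, which activate it. PAR bZIP factors such as DBP carry the rhythm to D-boxes in metabolic genes, and in liver the Bmal1 transcript and the transcripts of E-box genes such as Dbp and Per2 are known to peak at opposite times of day.

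The elements named above can be read in the promoters of the genes described here. They are shown for clock genes whose window held one of them, from the RefSeq promoter windows of GRCm38.p6, an older build than the GRCm39 build the authors used. A window runs from 250 bases before to 50 bases after a gene's start, and 24 of the 28 genes had at least 1 window. Per2, Csnk1d, Wee1 and Btrc had none. Each line gives 30 bases, 5′ to 3′ on the gene's strand, with the motif in capitals. The first 6 hold the E-box CACGTG, which reads the same on both strands.
Ciart, chr3:95882327-95882356, minus strand, 116 bases before the start: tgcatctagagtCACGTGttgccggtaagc
Per1, chr11:69098771-69098800, plus strand, 166 bases before the start: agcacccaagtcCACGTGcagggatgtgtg
Tef, chr15:81802534-81802563, plus strand, 127 bases before the start: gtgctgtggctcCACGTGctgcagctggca
Bhlhe41, chr6:145865556-145865585, minus strand, upstream of the start: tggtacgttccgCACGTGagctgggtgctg
Cipc, chr12:86947314-86947343, plus strand, 17 bases before the start: gccgagccgggcCACGTGactggcgaaagc
Cry1, chr10:85185097-85185126, minus strand, 60 bases before the start: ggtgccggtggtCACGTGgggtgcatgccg
The next pair holds the D-box TTATGTAA, searched on both strands.
Per3, chr4:151044805-151044834, minus strand, 158 bases before the start: cccgcccgcggTTATGTAAcccccgccgtg
Timeless, chr10:128237898-128237927, plus strand, 157 bases before the start: aagtagaccagTTATGTAAgtaaaacttga
The last pair holds the ROR element TAGGTCA, which in Nfil3 lies on the opposite strand and reads TGACCTA.
Arntl, chr7:113207530-113207559, plus strand, 30 bases after the start: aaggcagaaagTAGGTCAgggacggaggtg
Nfil3, chr13:52981033-52981062, minus strand, 12 bases before the start: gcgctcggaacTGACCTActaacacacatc

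An E-box was present in 7 of the 33 windows of these 24 genes, against 7.15% of all 32851 windows of the same length. The 7 windows belong to the 6 genes listed above, and Ciart held 3 E-boxes. The D-box was present in 2 of the 33 windows, those of Per3, which held 2, and Timeless, against 0.938% of all windows. A ROR element of the letters TAGGTCA or TGGGTCA, on either strand, was present in 2 of the 33 windows, of Arntl and Nfil3, against 6.45% of all windows. The cyclic AMP response element TGACGTCA was present in 1 of the 33 windows, of Hlf, against 1.79% of all windows. A match describes these letters in this window and is not a measured site.

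Library totals ranged from 29.3 to 69.6 M estimated counts. The hepatocyte markers were all present, with summed levels of 69785 to 113450 CPM, the usual counts-per-library scale corrected for library size and composition. Skeletal muscle and pancreatic acinar genes were unevenly spread over libraries. The 10 muscle markers summed to 1.68 to 154.7 CPM in Sham_Nx, 0.970 to 1.68 in Sham_IH, 1.14 to 7.99 in ORX_Nx and 1.10 to 912 in ORX_IH. The 11 acinar markers summed to 6.56 to 541, 11.7 to 1257, 4.37 to 7.51 and 5.73 to 225 CPM in the same order, and no marker of either list was at 0 in every library. The 12 acute phase genes reached 8300 CPM in ORX_Nx mouse 4 and 5622 CPM in ORX_Nx mouse 5, against 2647 to 4768 CPM in the other libraries. Called clock genes are therefore also described without the libraries highest in these lists.

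The clock genes differed in level over a wide range. Per kilobase of the transcript length in the counts table, the mean over 19 libraries was highest for Nono at 44.6 CPM per kilobase and for Nr1d1 at 44.3. They were followed by Tef at 32.05, Dbp at 23.9, Csnk1d at 22.9 and Noct at 22.3 CPM per kilobase. Among the activators Clock stood at 8.85 and Arntl at 5.74 CPM per kilobase, while Npas2 at 0.579 and Bhlhe41 at 0.795 were the lowest of the 28. The authors' deposited table of log2 values differed from these levels by a median of 0.0608 on the log2 scale over the 28 genes. The largest difference was for Dbp, 0.303 lower in the authors' values. There Dbp, at 4.27, stood below Csnk1d at 4.59 and Noct at 4.515. The authors' values were averaged as logs, and the levels here were averaged before the log was taken.

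Mice of the same group differed widely in several clock genes. The range of the 4 group means exceeded the standard deviation between mice of 1 group for 16 of the 28 genes. That count was not set against all tested genes and is no test of differences between groups. The standard deviation between mice of 1 group was 1.14 on the log2 CPM scale for Per1, 1.11 for Dbp, 1.02 for Npas2, 0.97 for Ciart, 0.90 for Usp2 and 0.87 for Per3. These 6 lay above the 90th percentile of the standard deviations of all 16164 tested genes, whose median was 0.221. Arntl followed with 0.65, Bhlhe41 with 0.56, Wee1 with 0.55, Tef with 0.54 and Nfil3 with 0.51. Set against tested genes within 0.5 log2 units of the same level, 15 of the 28 lay above the 90th percentile and 11 above the 95th, and these counts are descriptions with no test.

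The 3 genes with the smallest spread were Nono, Csnk1d and Btrc. Nono, an RNA and DNA binding partner of the PER proteins, had a standard deviation of 0.0447 on the log2 scale and ranged from 92.1 to 108 CPM, a 1.17-fold range over all 19 livers. Csnk1d, the casein kinase that phosphorylates PER, had 0.0833 and ranged from 52.0 to 64.3 CPM. Btrc, the F-box protein that marks phosphorylated PER for destruction, had 0.106 and ranged from 13.7 to 18.8 CPM. Clock itself had 0.14, so the transcript of the BMAL1 partner CLOCK varied far less between mice of 1 group than that of Arntl.

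**Figure D1:**
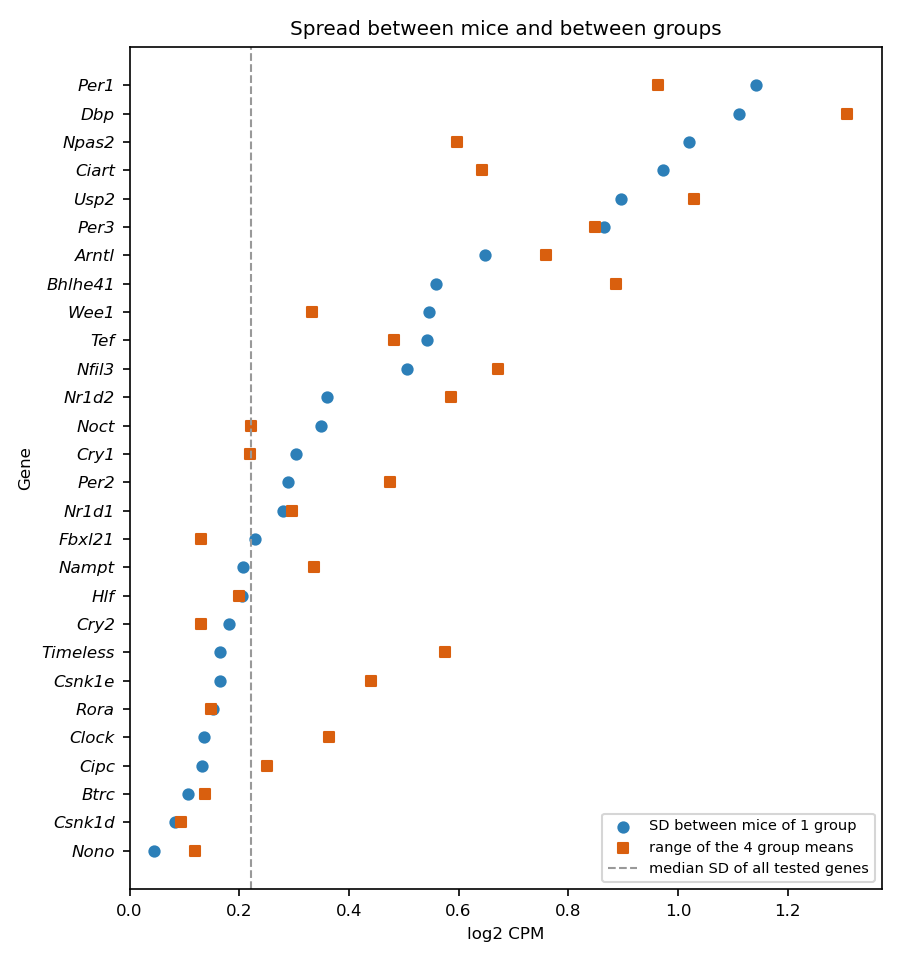
Spread of the 28 clock genes on the log2 CPM scale (x axis), genes on the y axis. Blue circles are the standard deviation between mice of 1 group pooled over the 4 groups, orange squares the range of the 4 group means, and the dashed line is the median standard deviation of all tested genes, 0.221. Per1 and Dbp lie farthest right with 1.14 and 1.11, and Nono farthest left with 0.0447.

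Arntl, the gene for the BMAL1 activator, shows the size of this spread. It stood at 13.4, 9.95, 22.6 and 18.1 CPM in Sham_Nx mice 2 to 5 and at 13.3, 18.8, 18.3, 5.73 and 14.5 CPM in Sham_IH mice 1 to 5. It stood at 4.54, 11.8, 16.0, 7.31 and 14.9 CPM in ORX_Nx mice 1 to 5 and at 18.6, 21.7, 10.9, 11.6 and 25.6 CPM in ORX_IH mice 1 to 5. Every group held both low and high livers, the 4 groups overlapped, and ORX_IH mouse 5 was 5.64-fold above ORX_Nx mouse 1.

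Dbp, the PAR bZIP factor that binds D-boxes, spanned the widest range of the 28, 16.4-fold. It stood at 29.8, 54.3, 9.14 and 26.2 CPM in Sham_Nx mice 2 to 5 and at 29.5, 18.3, 15.9, 93.7 and 18.7 CPM in Sham_IH mice 1 to 5. It stood at 72.0, 39.1, 29.4, 49.9 and 20.4 CPM in ORX_Nx mice 1 to 5 and at 6.20, 12.5, 38.0, 53.3 and 5.70 CPM in ORX_IH mice 1 to 5. The highest liver, Sham_IH mouse 4, and the lowest, ORX_IH mouse 5, were both under intermittent hypoxia, and all groups overlapped. The Dbp gene overlaps Sphk2 on the opposite strand and its estimated counts were not whole numbers in all 19 libraries, so some of its reads could belong to another gene model.

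Per2, a repressor of CLOCK and BMAL1, varied less. It stood at 29.8, 36.5, 21.9 and 26.2 CPM in Sham_Nx mice 2 to 5, at 39.7, 33.6, 32.4, 47.8 and 39.4 CPM in Sham_IH mice 1 to 5, at 62.0, 35.5, 29.3, 33.1 and 36.5 CPM in ORX_Nx mice 1 to 5, and at 36.3, 40.4, 43.3, 41.7 and 34.5 CPM in ORX_IH mice 1 to 5. ORX_Nx mouse 1 was the highest liver and Sham_Nx mouse 4 the lowest, and no pair of groups compared here was without overlap.

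Nr1d1, the gene for REV-ERB alpha, the repressor of Bmal1, stood at 124, 112, 89.6 and 119 CPM in Sham_Nx mice 2 to 5 and at 128, 109, 85.1, 131 and 102 CPM in Sham_IH mice 1 to 5. It stood at 104.2, 114.5, 142.7, 147.6 and 81.8 CPM in ORX_Nx mice 1 to 5 and at 70.5, 105.9, 107.5, 107.2 and 85.3 CPM in ORX_IH mice 1 to 5. The range over all livers was 2.09-fold and the groups overlapped. Nr1d1 overlaps Thra on the opposite strand, and its counts were not whole in all 19 libraries. The kit marks the strand of a read, and the sources used here do not give the strand setting of the counting.

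Some livers stood at the edge of the range for several clock genes. Sham_IH mouse 4 was the highest of all 19 livers for 7 genes: Per3, Cry2, Nr1d2, Dbp, Tef, Ciart and Bhlhe41. It lay 1.78 log2 units above its group mean for Dbp and 1.68 above for Per3, and 1.19 below for Arntl and 1.36 below for Npas2. ORX_Nx mouse 1 was the highest for Per2, Usp2, Wee1, Nampt and Nono and the lowest for Arntl, Clock and Npas2. ORX_IH mouse 5 was the highest for Arntl, Npas2 and Cry1 and the lowest for Per1, Nr1d2, Dbp and Usp2. For Arntl, Npas2 and Usp2 it stood at the edge opposite to ORX_Nx mouse 1. Sham_Nx mouse 4 was the lowest for Per2, Per3, Tef and Ciart and lay 1.60 log2 units above its group mean for Npas2. ORX_Nx mouse 5 was the highest for Per1 and Noct and the lowest for Hlf, Fbxl21 and Cipc. ORX_IH mouse 1 was the highest for Timeless and the lowest for Cry2, Nr1d1 and Rora.

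**Figure D2:**
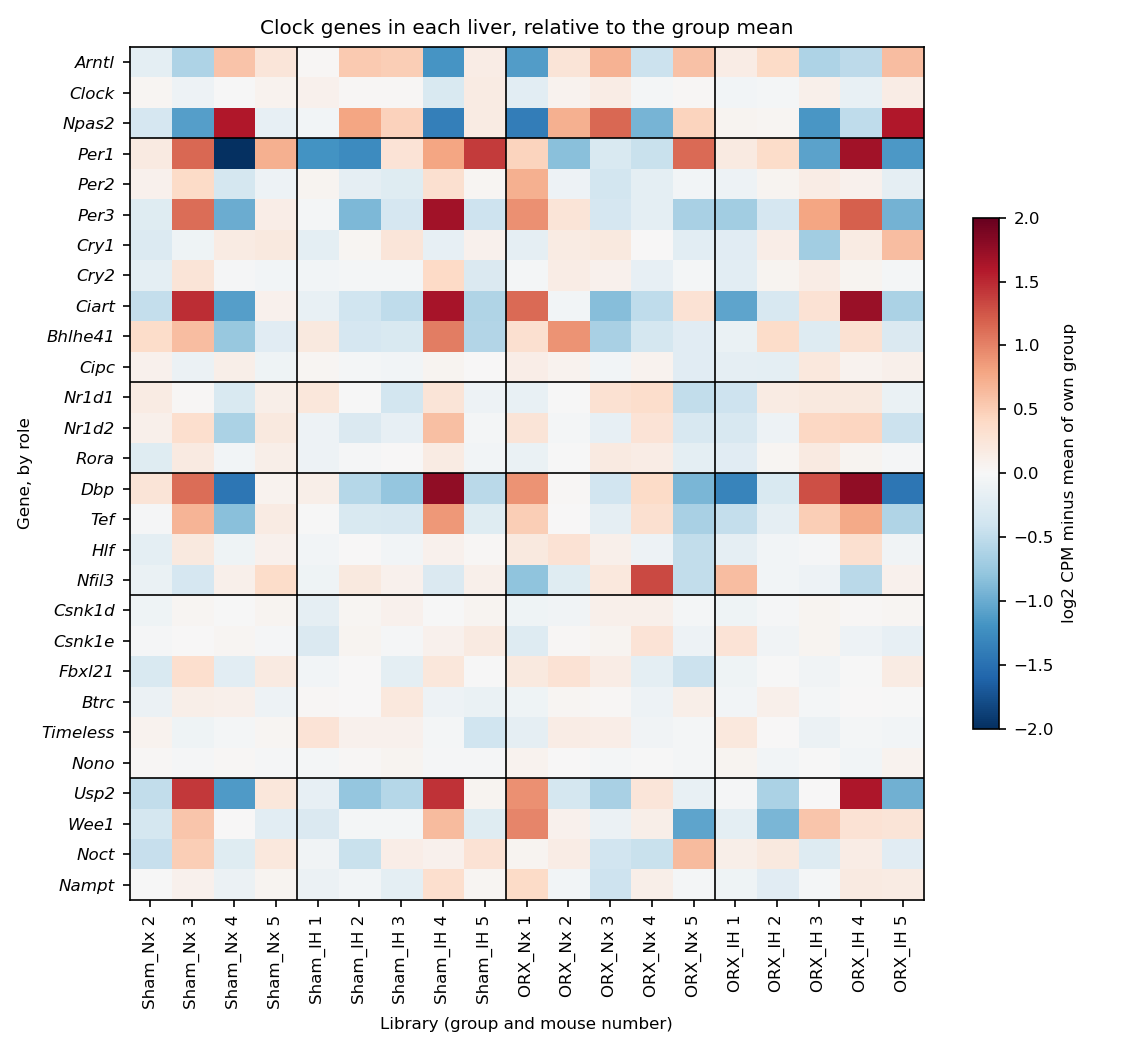
Deviation of each gene (rows, ordered by role) from the mean of its own group on the log2 CPM scale, in each library (columns, by group and mouse number); red is above and blue below the group mean, and colours are limited at 2 log2 units. Sham_IH mouse 4 is blue for Arntl and Npas2, at -1.19 and -1.36, and red for Per3 and Dbp, at 1.68 and 1.78; Nono, Csnk1d and Btrc stay pale throughout.

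Relations to Arntl across the 19 livers were measured on these deviations for 6 partners, with two-sided permutation tests within groups and Benjamini-Hochberg (BH) adjustment over the 6. Npas2, the CLOCK paralogue that can pair with BMAL1, followed Arntl with Pearson's r = 0.92 and Spearman's rho = 0.94 (permutation p = 1e-05, the smallest the draws can give, BH-adjusted 3e-05 for each), and both lay on the same side of their group means in 17 of 19 livers. Dbp ran opposite to Arntl with r = -0.86 and rho = -0.86 (permutation p = 1e-05, the smallest the draws can give, BH-adjusted 3e-05 for each) and lay on the other side of its mean in 16 of 19 livers. Per2 also ran opposite, with r = -0.83 (permutation p = 8e-05, BH-adjusted 0.00016) and rho = -0.81 (permutation p = 0.00024, BH-adjusted 0.00048), in 15 of 19 livers.

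These 3 relations remained without Sham_IH mouse 4 and ORX_Nx mouse 1, the libraries farthest from the median of Arntl. The deviations were still taken from group means that include those livers. Over the other 17 livers r was 0.90 for Npas2 (permutation p = 4e-05), -0.85 for Dbp (permutation p = 0.00023) and -0.73 for Per2 (permutation p = 0.00141). They also held over the 15 libraries numbered 1 to 16 in the labels, with r = 0.95, -0.85 and -0.85, and the other 4 libraries are too few for a value of their own. All values come from the same libraries and the same scaling.

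The other 3 partners were less clear. Clock followed Arntl with r = 0.71 (permutation p = 0.00565, BH-adjusted 0.00847) but with rho = 0.52 (permutation p = 0.0384, BH-adjusted 0.0577), in 14 of 19 livers. Leaving out 1 library kept the BH-adjusted permutation p under 0.05 in 18 of 19 fits. Without Sham_IH mouse 4 r was 0.58 (BH-adjusted permutation p = 0.0658). Without both Sham_IH mouse 4 and ORX_Nx mouse 1 the Pearson value was 0.44 (permutation p = 0.128), so its size depends on those livers. Nr1d1 gave r = -0.39 (permutation p = 0.152, BH-adjusted 0.183) and rho = -0.37 (permutation p = 0.177, BH-adjusted 0.177), on the other side of its mean in 14 of 19 livers, and r = -0.48 without the same pair of livers (permutation p = 0.0683). Nfil3, the repressor that competes with DBP at D-boxes, gave r = 0.30 (permutation p = 0.329, BH-adjusted 0.329) and rho = 0.43 (permutation p = 0.11, BH-adjusted 0.132), on the same side in 14 of 19 livers, and r = 0.03 without that pair (permutation p = 0.929). Its value changed most with ORX_Nx mouse 4, where Nfil3 stood at 70.0 CPM against 14.6 to 43.9 CPM in the other livers. Without that liver r was 0.69 (BH-adjusted permutation p = 0.00585). ORX_Nx mouse 4 also had the highest acute phase sum, whose part in the Nfil3 level was not tested. Without ORX_Nx mouse 1 Nr1d1 gave r = -0.55 (BH-adjusted permutation p = 0.0379). For Nr1d1 and for Nfil3 the adjusted p stayed over 0.05 in the other 18 of 19 fits without 1 library.

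**Figure D3:**
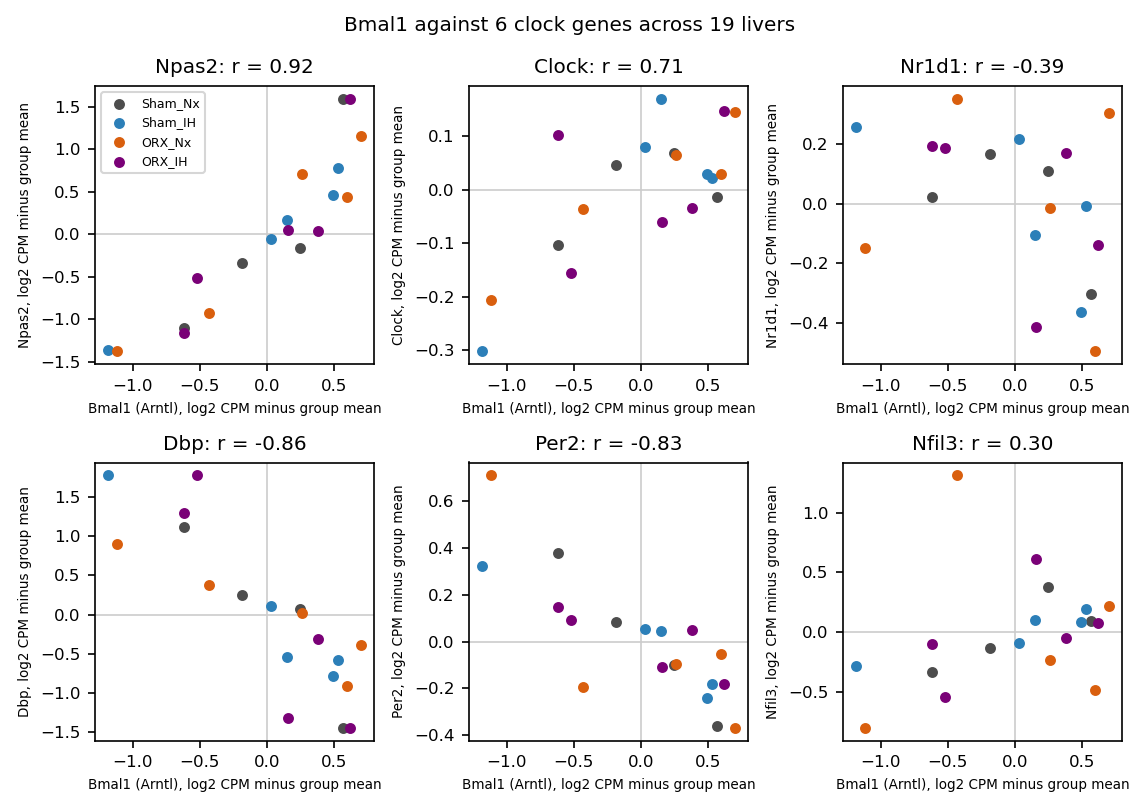
Deviation of Arntl (x axes) against that of 6 partner genes (y axes) from the mean of their own group on the log2 CPM scale; each point is 1 liver, coloured by group, and each panel is headed by Pearson's r over 19 livers. Npas2 rises with Arntl (r = 0.92), Dbp and Per2 run opposite (r = -0.86 and -0.83), and Nr1d1 and Nfil3 scatter (r = -0.39 and 0.30).

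Against this spread the treatments were compared with edgeR's quasi-likelihood test, fitted on all 16164 genes and all 19 libraries, and a gene was called at a BH-adjusted p under 0.05. Orchiectomy in normoxia called 2 of the 28 clock genes, 7.14%, against 14.3% of all tested genes. Clock fell, as 6.46% of all tested genes did, and Csnk1e rose, as 7.88% did, while Arntl, the Per and Cry genes, the REV-ERB genes and the PAR bZIP genes did not pass. The median log2 fold change of the 28 was 0.06, against 0.01 over all tested genes, and 5 of the 28 had an unadjusted p under 0.05, against 30.3% of all genes. In a whole liver, fewer cells of a type and less RNA per cell cannot be told apart.

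Clock (ENSMUSG00000029238), the histone acetyltransferase and DNA-binding partner of BMAL1, stood at 81.5, 73.5, 78.2 and 82.8 CPM in Sham_Nx mice 2 to 5 and at 53.2, 64.2, 67.8, 59.9 and 62.7 CPM in ORX_Nx mice 1 to 5. Every ORX_Nx liver lay below every Sham_Nx liver. Clock fell by 0.36 ± 0.09 (log2 ± SE) with a 95% interval from -0.53 to -0.19 (edgeR BH-adjusted p = 0.0115; exact two-sided permutation p = 0.00794, the smallest the groupings allow). Under intermittent hypoxia it stood at 76.4, 73.4, 73.8, 58.6 and 81.4 CPM in Sham_IH mice 1 to 5 and at 68.5, 69.9, 76.7, 64.2 and 79.1 CPM in ORX_IH mice 1 to 5, and those groups overlapped.

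Whether orchiectomy acted differently under normoxia and intermittent hypoxia was tested as an interaction, which for Clock was 0.34 ± 0.12 with a 95% interval from 0.11 to 0.57 (edgeR BH-adjusted p = 0.703, unadjusted 0.0107). Without the 4 libraries highest in skeletal muscle genes (ORX_IH mice 1 and 2, Sham_Nx mice 2 and 3), which leaves 2 in Sham_Nx, the fall of Clock in normoxia was 0.40 on the log2 scale, as large as with them, but edgeR's BH-adjusted p was 0.079. With no scaling factors, which moved the median of all genes from 0.01 to 0.14 in this comparison, Clock was at -0.23 and was not called (edgeR BH-adjusted p = 0.105).

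Csnk1e (ENSMUSG00000022433), a casein kinase that phosphorylates PER and sets the speed of the clock, stood at 6.39, 6.54, 6.66 and 6.38 CPM in Sham_Nx mice 2 to 5 and at 7.15, 8.71, 8.89, 10.4 and 7.96 CPM in ORX_Nx mice 1 to 5. Every ORX_Nx liver was above every Sham_Nx liver. Csnk1e rose by 0.41 ± 0.11 with a 95% interval from 0.19 to 0.63 (edgeR BH-adjusted p = 0.0242; exact two-sided permutation p = 0.0159). It stood at 5.17, 6.51, 6.19, 6.67 and 7.12 CPM in Sham_IH mice 1 to 5 and at 8.88, 6.94, 7.63, 6.84 and 6.52 CPM in ORX_IH mice 1 to 5, with overlap.

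The normoxic call for Csnk1e was lost when any 1 of Sham_Nx mice 2 to 5 or ORX_Nx mouse 4 was left out, with values from 0.33 to 0.42 in those fits and edgeR BH-adjusted p from 0.0505 to 0.0596. It also ended without the 4 muscle-high libraries (0.39, edgeR BH-adjusted p = 0.138) and when the 3 acinar-high libraries were left out (0.40, edgeR BH-adjusted p = 0.0512). Csnk1e overlaps Gm16059 on the opposite strand and its counts were not whole in all 19 libraries, so its reads could be split with another gene model. The related kinase Csnk1d had a mean of 60.7 CPM with an SD of 2.62 over 4 Sham_Nx livers, and of 60.2 CPM with an SD of 3.72 over 5 ORX_Nx livers.

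Groups that do not overlap were found for 4 of the 28 genes in this comparison, Clock, Csnk1e, Timeless and Nono, against 12.3% of all tested genes. Timeless and Nono did not pass the test, with 0.29 ± 0.11 (edgeR BH-adjusted p = 0.0932) and 0.08 ± 0.04 (edgeR BH-adjusted p = 0.202). Of the other genes Cipc was at -0.25 ± 0.09 (edgeR BH-adjusted p = 0.0586) and Per2 at 0.46 ± 0.18 (edgeR BH-adjusted p = 0.0995), both with an unadjusted p under 0.05. Without ORX_Nx mouse 1 Per2 was at 0.23.

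The 95% interval lay within a 2-fold difference in either direction for 19 of the 28 genes in this comparison. The 9 whose interval reached past it were Arntl, Npas2, Per1, Per3, Ciart, Bhlhe41, Dbp, Tef and Usp2. For Dbp the interval ran from -0.82 to 1.82 and for Arntl from -1.29 to 0.17, and a 2-fold difference lies inside both.

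Markers of other cells moved with orchiectomy in normoxia. All 11 Kupffer cell and macrophage markers rose, with a median of 1.09 on the log2 scale and summed levels of 197 to 322 CPM in Sham_Nx and 266 to 1121 CPM in ORX_Nx. Of 12 acute phase genes 8 rose, with a median of 2.50 and sums of 2715 to 3947 and 2647 to 8300 CPM. Of 10 muscle markers 2 fell and none rose, and none of the 11 acinar markers passed in either direction, although their medians were -4.76 and -7.92. The part of these cells in the clock gene results was not tested. Without the 2 libraries highest in acute phase genes, ORX_Nx mice 4 and 5, Clock stayed at -0.36 and was called (edgeR BH-adjusted p = 0.0377), while Csnk1e was at 0.34 and was not (edgeR BH-adjusted p = 0.0836).

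Under intermittent hypoxia orchiectomy called none of the 28 genes, against 2.88% of all tested genes, 1.31% higher and 1.57% lower. DESeq2 and limma-voom also called none, and 1 of the 28 had an unadjusted p under 0.05 in edgeR, against 17.2% of all genes. The smallest p belonged to Bhlhe41 at -0.96 ± 0.34 (edgeR BH-adjusted p = 0.149), Timeless at 0.22 ± 0.11 (0.299, same test and adjustment) and Csnk1e at 0.22 ± 0.11 (0.314, same test and adjustment). Leaving out 1 library moved each of them by over 1.5-fold. Bhlhe41 was at -0.58 without Sham_IH mouse 4, Timeless at 0.13 without Sham_IH mouse 5 and Csnk1e at 0.14 without ORX_IH mouse 1. No clock gene had groups without overlap here, against 5.85% of all tested genes. The median of the 28 was -0.09, against 0.00 over all genes, and 20 of the 28 intervals lay within 2-fold. In this comparison 8 of the 10 muscle markers rose. Their sum was 912 and 538 CPM in ORX_IH mice 1 and 2. It was 1.10 to 1.33 CPM in the other ORX_IH livers and 0.970 to 1.68 CPM in Sham_IH.

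Averaged over both exposures, which uses all 19 libraries, orchiectomy called 5 of the 28 genes, 17.9%, against 22.0% of all tested genes. Of the 28 genes 2 rose, against 11.8% of all, and 3 fell, against 10.1% of all. Csnk1e rose by 0.31 ± 0.08 (edgeR BH-adjusted p = 0.00901) and Timeless by 0.25 ± 0.08 (edgeR BH-adjusted p = 0.0265). Bhlhe41 fell by 0.80 ± 0.25 (edgeR BH-adjusted p = 0.0266), Clock by 0.19 ± 0.06 (edgeR BH-adjusted p = 0.0297) and Cipc by 0.17 ± 0.06 (edgeR BH-adjusted p = 0.044). The share called was below that of all genes, and the median of the 28 was -0.02, against 0.00. These averages share their libraries with the comparisons in each exposure and are not separate evidence.

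Bhlhe41 (ENSMUSG00000030256), the repressor DEC2 that competes at E-boxes, showed the largest of the 5 differences. It stood at 4.50, 5.36, 2.05 and 2.99 CPM in Sham_Nx mice 2 to 5 and at 3.92, 2.70, 2.75, 6.96 and 2.27 CPM in Sham_IH mice 1 to 5. It stood at 2.78, 4.14, 1.40, 1.73 and 1.90 CPM in ORX_Nx mice 1 to 5 and at 1.72, 2.42, 1.57, 2.34 and 1.53 CPM in ORX_IH mice 1 to 5. Sham and orchiectomized livers overlapped in both exposures. The call was lost without Sham_Nx mouse 2 (-0.75, edgeR BH-adjusted p = 0.0543), without Sham_Nx mouse 3 (-0.69, edgeR BH-adjusted p = 0.0628) and without Sham_IH mouse 4 (-0.62, edgeR BH-adjusted p = 0.0555). Bhlhe41 overlaps Gm43909 on the opposite strand, and its counts were not whole in all 19 libraries.

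Cipc (ENSMUSG00000034157), which binds CLOCK and inhibits it, stood at 44.4, 38.6, 45.4 and 39.7 CPM in Sham_Nx mice 2 to 5 and at 41.1, 38.7, 38.5, 41.5 and 40.0 CPM in Sham_IH mice 1 to 5. It stood at 38.8, 37.2, 34.0, 36.8 and 30.03 CPM in ORX_Nx mice 1 to 5 and at 32.9, 32.3, 43.0, 38.8 and 39.8 CPM in ORX_IH mice 1 to 5. The ORX_Nx livers reached from 30.03 to 38.8 CPM and only just overlapped Sham_Nx, while ORX_IH reached from 32.3 to 43.0 CPM, with Sham_Nx mice 2 and 4 above all of its livers. The call for Cipc was lost in 12 of the 19 fits that left out 1 library, with values from -0.20 to -0.15.

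With no scaling factors the median of all genes in this average moved from 0.00 to 0.13. Clock was then at -0.06 and Cipc at -0.04, and neither was called (edgeR BH-adjusted p = 0.527 and 0.581). Csnk1e, Timeless and Bhlhe41 remained called, and Nono, Nampt and Per2 were called as higher. Without the 4 libraries highest in muscle genes none of the 5 was called, with Csnk1e at 0.27 (edgeR BH-adjusted p = 0.0912), Timeless at 0.21 (0.201), Bhlhe41 at -0.56 (0.254), Clock at -0.19 (0.145) and Cipc at -0.12 (0.219), each p by the same test and adjustment. Without Sham_IH mouse 5, Sham_Nx mouse 5 and ORX_IH mouse 1, the 3 highest in acinar genes, Csnk1e and Bhlhe41 were called. Without ORX_Nx mice 4 and 5, the acute phase-high libraries, Csnk1e and Timeless were called, while Bhlhe41 was at -0.69, Clock at -0.18 and Cipc at -0.14 (edgeR BH-adjusted p = 0.0841, 0.0634 and 0.0986). Leaving out a single library kept the call for Csnk1e in all 19 fits, ended that for Timeless without ORX_IH mouse 1 or Sham_Nx mouse 3, and ended that for Clock in 5 fits, without Sham_Nx mouse 2 or 5, Sham_IH mouse 1 or 5, or ORX_IH mouse 1.

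In the average over exposures 10 of the 11 Kupffer cell and macrophage markers and 8 of the 13 lymphocyte markers rose. Of the 11 acinar markers 8 fell. The acinar sum was 541 CPM in Sham_Nx mouse 5 and 1257 CPM in Sham_IH mouse 5, against 6.56 to 25.3 CPM in the other sham livers. Among orchiectomized livers it was 225 CPM in ORX_IH mouse 1 and 4.37 to 10.6 CPM in the others. Of the 12 acute phase genes 8 rose, with a median of 1.98 on the log2 scale, as did 3 of the 8 stellate cell and fibroblast markers. Lymphocyte sums were 5.28 to 7.42 CPM in Sham_Nx, 4.85 to 6.41 in Sham_IH, 9.67 to 23.2 in ORX_Nx and 7.63 to 17.5 in ORX_IH. Their part in the clock gene results was not tested.

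**Figure D4:**
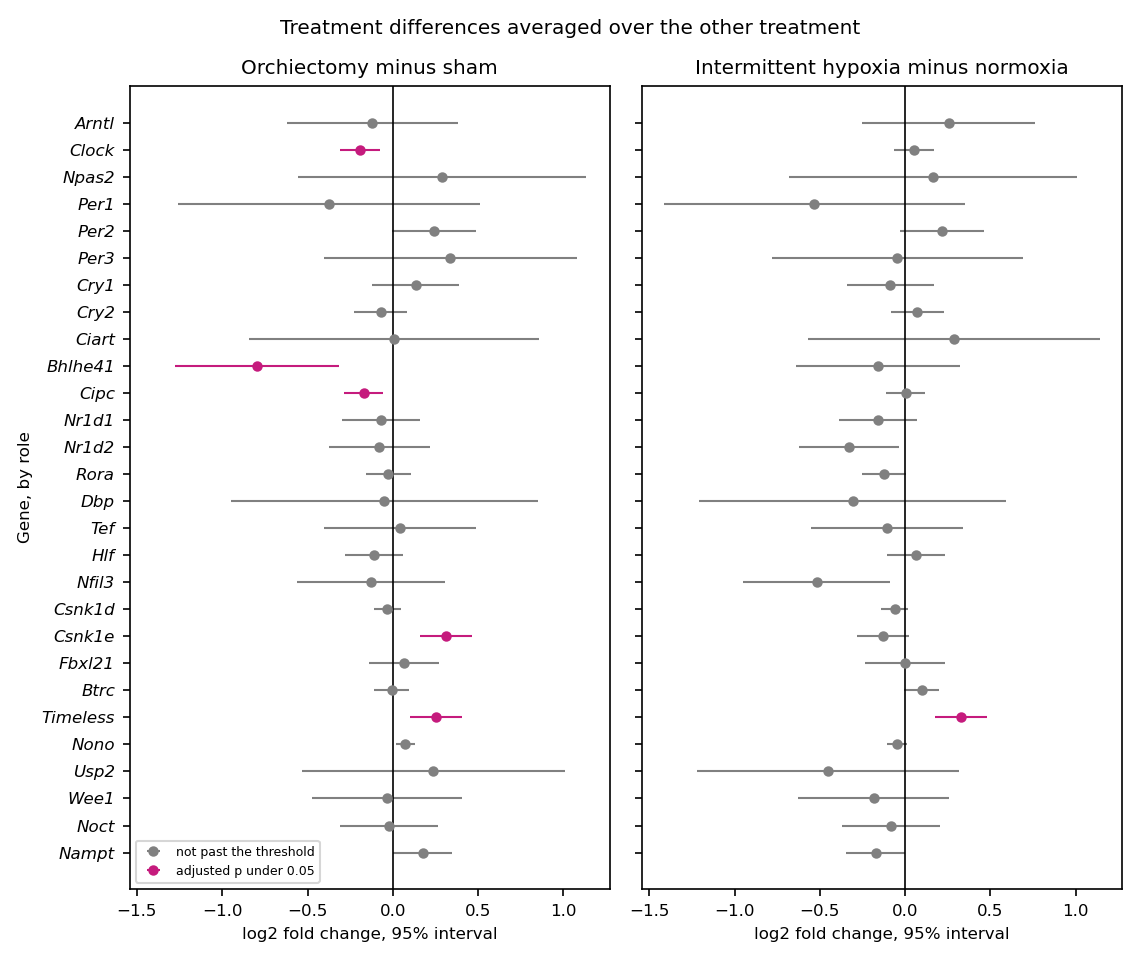
Log2 fold change with its 95% interval (x axes) for the 28 clock genes (y axis, by role), for orchiectomy averaged over both exposures (left) and intermittent hypoxia averaged over both operations (right); magenta marks a BH-adjusted edgeR p under 0.05. Csnk1e, Timeless, Bhlhe41, Clock and Cipc are marked on the left and Timeless alone on the right, and the intervals of Per1, Npas2 and Usp2 reach past 1 log2 unit in both.

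Intermittent hypoxia after the sham operation called none of the 28 genes, against 0.303% of all tested genes, 0.0990% higher and 0.204% lower. DESeq2 and limma-voom called none either, and 2 of the 28 had an unadjusted edgeR p under 0.05, against 13.1% of all genes. The smallest p belonged to Timeless at 0.36 ± 0.11 (edgeR BH-adjusted p = 0.164), Per2 at 0.43 ± 0.18 (0.312, same test and adjustment) and Btrc at 0.14 ± 0.08 (0.476, same test and adjustment), which was at 0.084 without Sham_IH mouse 3. No clock gene had groups without overlap, against 8.51% of all tested genes, and the median of the 28 was -0.04, against 0.00.

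Intermittent hypoxia after orchiectomy also called none, against 0.0742% of all tested genes, 0.0186% higher and 0.0557% lower, and DESeq2 and limma-voom called none. Of the 28 genes 5 had an unadjusted edgeR p under 0.05, against 17.1% of all genes. Timeless was at 0.29 ± 0.11 (edgeR BH-adjusted p = 0.161), Nr1d2, the gene for REV-ERB beta, at -0.56 ± 0.21 (0.173, same test and adjustment) and Clock at 0.22 ± 0.08 (0.177, same test and adjustment). Timeless was the only clock gene without overlap, against 2.30% of all tested genes (exact two-sided permutation p = 0.00794, again the smallest possible). The median of the 28 was -0.12, against -0.01 over all genes, and 19 of 28 intervals lay within 2-fold.

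Averaged over both operations, intermittent hypoxia called 1 of the 28 genes, 3.57%, against 4.53% of all tested genes, 1.96% higher and 2.57% lower. That gene was Timeless (ENSMUSG00000039994), whose protein protects DNA replication forks and whose fly namesake is a partner of PER. It rose by 0.33 ± 0.08 with a 95% interval from 0.18 to 0.48 (edgeR BH-adjusted p = 0.0255). In the authors' deposited table Timeless was also the 1 clock gene with a q-value under 0.05 for any difference among groups, q = 0.0380, against 4.03% of all 35982 genes in it. Clock, Csnk1e, Cipc, Nono and Timeless had a p under 0.05 in the authors' deposited table, 5 of the 28, against 16% of all its genes.

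Timeless stood at 6.43, 5.73, 5.96 and 6.28 CPM in Sham_Nx mice 2 to 5 and at 9.38, 8.24, 8.20, 7.58 and 5.86 CPM in Sham_IH mice 1 to 5. It stood at 6.56, 8.18, 8.17, 7.07 and 7.23 CPM in ORX_Nx mice 1 to 5 and at 10.6, 9.18, 8.35, 8.82 and 8.72 CPM in ORX_IH mice 1 to 5. All 5 ORX_IH livers lay above all 5 ORX_Nx livers, and 4 of 5 Sham_IH livers lay above every Sham_Nx liver, the exception being Sham_IH mouse 5. The group means and SDs were 6.10 ± 0.315, 7.85 ± 1.29, 7.44 ± 0.714 and 9.12 ± 0.852 CPM for Sham_Nx, Sham_IH, ORX_Nx and ORX_IH.

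The call was lost without Sham_Nx mouse 3 (0.31, edgeR BH-adjusted p = 0.0578) and without Sham_Nx mouse 5 (0.33, edgeR BH-adjusted p = 0.0505). It also ended without the 4 muscle-high libraries (0.28, edgeR BH-adjusted p = 0.278) and without the 2 highest in acute phase genes (0.31, edgeR BH-adjusted p = 0.0533). Timeless overlaps Gm26847 on the opposite strand, and its counts were not whole in all 19 libraries. Of the 11 Kupffer cell and macrophage markers 1 passed the test in this average, as lower, and all 11 had a value below 0, 10 of them with an unadjusted p under 0.05, with a median of -0.60. Their summed level was 176 to 234 CPM in Sham_IH and 243 to 384 CPM in ORX_IH, against 197 to 322 and 266 to 1121 CPM in normoxia, and their part in the Timeless result was not tested. The other clock genes with an unadjusted p under 0.05 in this average were Nfil3 at -0.52 ± 0.22 (edgeR BH-adjusted p = 0.174), which was at -0.27 without ORX_Nx mouse 4, and Nr1d2 at -0.33 ± 0.15 (edgeR BH-adjusted p = 0.209).

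**Figure D5:**
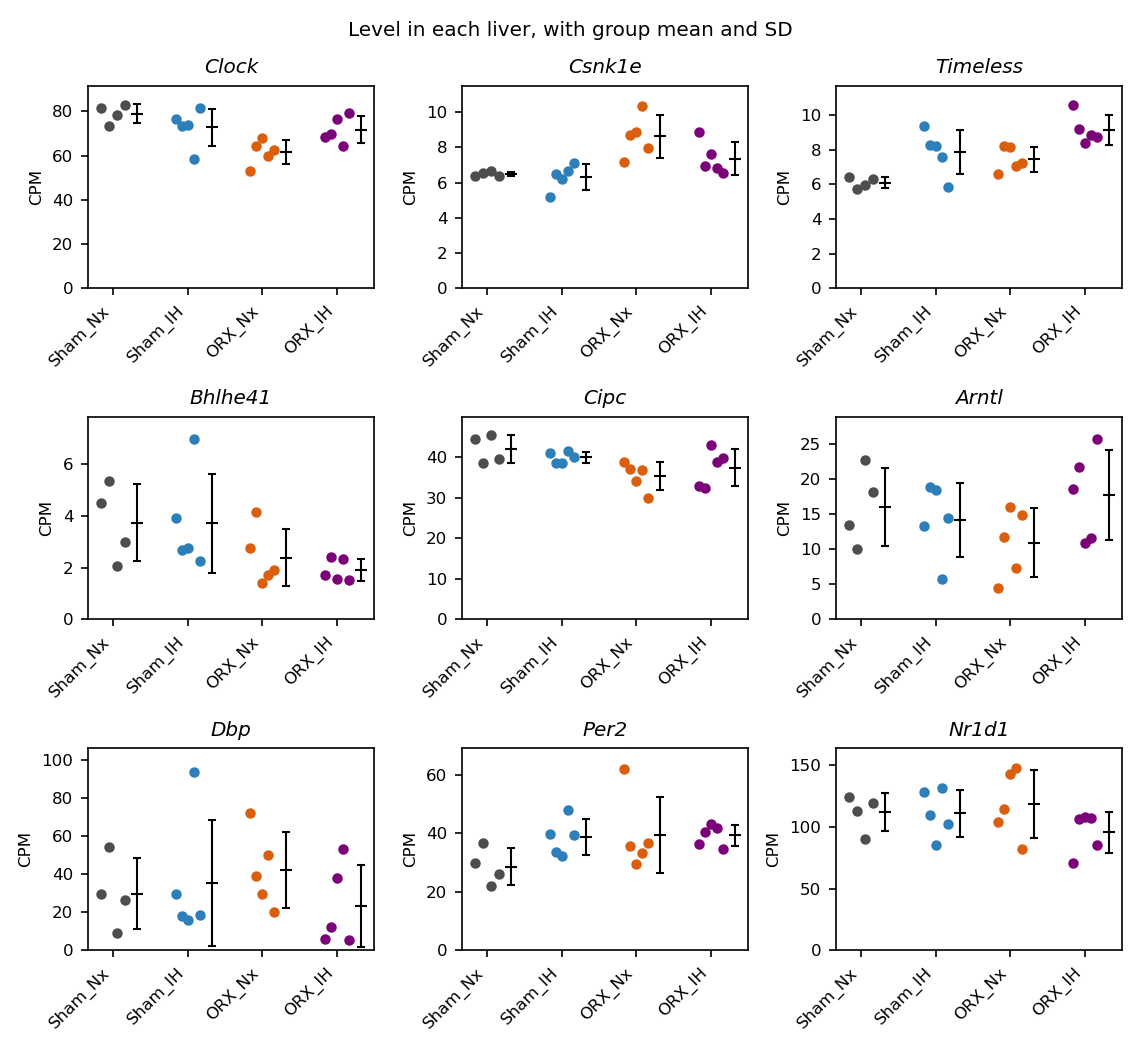
Level in CPM (y axes, starting at 0) of 9 clock genes in each liver (points), by group (x axes); bars beside the points are the group mean and SD (n = 4 for Sham_Nx and n = 5 for the others). Clock is lower in every ORX_Nx liver (53.2 to 67.8 CPM) than in any Sham_Nx liver (73.5 to 82.8 CPM), Timeless is highest in ORX_IH (8.35 to 10.6 CPM), and Arntl, Dbp, Per2 and Nr1d1 overlap between groups.

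The interaction of orchiectomy and intermittent hypoxia called none of the 28 genes and 0 of all 16164. DESeq2 called none of the 28 and 62 of all genes, limma-voom called 0 of either, and 1 of the 28, Clock, had an unadjusted edgeR p under 0.05, against 6.34% of all genes. After Clock the smallest p belonged to Per2 at -0.43 ± 0.25 (edgeR BH-adjusted p = 0.805), which was at -0.21 without ORX_Nx mouse 1, and Arntl at 0.88 ± 0.51 (edgeR BH-adjusted p = 0.805). Only 17 of the 28 intervals of the interaction lay within 2-fold, and the interval for Arntl ran from -0.13 to 1.89.

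The remaining repressors gave no call in any of the 7 comparisons. Per1, a repressor gene that glucocorticoids also induce, ranged from 3.92 to 37.2 CPM, with means and SDs of 21.3 ± 13.7, 17.1 ± 12.4, 19.2 ± 11.3 and 11.3 ± 9.73 CPM for Sham_Nx, Sham_IH, ORX_Nx and ORX_IH. Per3 ranged from 3.26 to 24.9 CPM and Ciart, a BMAL1-binding repressor also called CHRONO, from 0.727 to 7.83 CPM. Cry1 ranged from 5.47 to 13.6 CPM and Cry2 from 25.3 to 42.4 CPM. The SD between mice of 1 group was 0.30 on the log2 scale for Cry1 and 0.18 for Cry2, below the values for Per1 and Per3.

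Among the genes of the ROR element loop, Nr1d2 ranged from 27.0 to 68.5 CPM, with means and SDs of 49.9 ± 12.9, 46.5 ± 12.6, 55.3 ± 9.76 and 37.5 ± 10.5 CPM in the same order of groups. Rora, the activator at the same elements, ranged from 42.7 to 63.0 CPM. Of the PAR bZIP genes Tef ranged from 39.4 to 150.5 CPM and Hlf from 37.7 to 67.3 CPM. Npas2 ranged from 0.485 to 5.98 CPM, a 12.3-fold range with no difference between groups past the test.

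The outputs and the ubiquitin genes likewise gave no call. Usp2, a deubiquitinase whose transcript is under clock control, ranged from 2.77 to 20.8 CPM, and Wee1, the kinase that holds cells before mitosis, from 3.25 to 15.2 CPM. Noct, the nocturnin phosphatase, ranged from 64.0 to 150.8 CPM. Nampt, the rate-limiting enzyme of NAD salvage, ranged from 43.9 to 83.2 CPM and was at 0.17 ± 0.09 after orchiectomy averaged over exposures (edgeR BH-adjusted p = 0.171). Fbxl21, an F-box protein that binds CRY, ranged from 2.90 to 4.92 CPM. The counts of Per3, Cry2, Rora, Fbxl21, Noct and Btrc were also not whole in all 19 libraries, so their reads could be split with other gene models.

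Other parts of the clock machinery were read from a list of 24 further genes, of which 23 were tested. In normoxia orchiectomy raised 3 of them, against 7.88% of all tested genes, and lowered none, against 6.46%. Bhlhe40, the paralogue of Bhlhe41 that encodes DEC1, rose by 1.504 ± 0.31 (edgeR BH-adjusted p = 0.00492), while Bhlhe41 was at -0.64 ± 0.35 in the same comparison (edgeR BH-adjusted p = 0.235). Sfpq, which forms a dimer with NONO, rose by 0.23 ± 0.06 (edgeR BH-adjusted p = 0.0145), and Crebbp, a coactivator of CLOCK and BMAL1, by 0.23 ± 0.07 (edgeR BH-adjusted p = 0.026). The call for Bhlhe40 held in all 19 fits without 1 library, that for Sfpq in 18 and that for Crebbp in 13. All 3 ended without the 4 muscle-high libraries, with Bhlhe40 at 1.67, Sfpq at 0.26 and Crebbp at 0.23 (edgeR BH-adjusted p = 0.051, 0.0921 and 0.176). Sfpq and Crebbp also ended without the acinar-high libraries and with the compared groups only.

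Under intermittent hypoxia orchiectomy raised Sfpq alone, by 0.21 ± 0.05 (edgeR BH-adjusted p = 0.0455), a call that ended in 14 of the 19 fits without 1 library and without the muscle-high libraries. In the average over exposures 4 genes rose, Sfpq, Bhlhe40, Crebbp and Kmt2a, and 1 fell, Ncoa2 by 0.12 ± 0.04 (edgeR BH-adjusted p = 0.0377), named here after its value was seen. Of all tested genes 1.31% rose with orchiectomy under intermittent hypoxia, and in the average over exposures 11.8% rose and 10.1% fell. Without the muscle-high libraries Sfpq and Bhlhe40 remained called in that average and Crebbp, Kmt2a and Ncoa2 did not. Averaged over operations, intermittent hypoxia raised Sfpq by 0.20 ± 0.04 (edgeR BH-adjusted p = 0.0105) and no other gene of the list. Of all tested genes 1.96% rose in the average over operations. The call for Sfpq there ended when the muscle-high libraries or the acinar-high libraries were left out.

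Rhythmic liver outputs outside the 28 were read from 24 genes, all tested. Of all tested genes orchiectomy lowered 6.46% in normoxia and 1.57% under intermittent hypoxia. In the average over exposures 11.8% rose and 10.1% fell. Elovl3, a fatty acid elongase known to be both rhythmic and male-biased in mouse liver, fell by 5.15 ± 0.49 in normoxia (edgeR BH-adjusted p = 3.51e-06) and by 4.63 ± 0.48 under intermittent hypoxia (edgeR BH-adjusted p = 1.38e-05). Gys2, the liver glycogen synthase, fell by 0.40 ± 0.10 under intermittent hypoxia (edgeR BH-adjusted p = 0.0392). In the average over exposures Rgs16, a regulator of G protein signalling, rose by 2.05 ± 0.55 (edgeR BH-adjusted p = 0.0135) and Lpin1, a phosphatidate phosphatase, by 1.32 ± 0.47 (edgeR BH-adjusted p = 0.0495), and Elovl3 and Gys2 fell. Leaving out 1 library ended the call for Gys2 under intermittent hypoxia in 9 of 19 fits and that for Lpin1 in 13, with Lpin1 at 0.79 without ORX_Nx mouse 4 and at 0.85 without ORX_IH mouse 4. Without the muscle-high libraries Elovl3 and Rgs16 remained called, and Gys2 and Lpin1 did not. The averaged calls for Rgs16 and Lpin1 ended with limma-voom and with limma-trend on the authors' log2 values. Intermittent hypoxia called none of the 24 in any of its comparisons. Of all tested genes it called 0.303% after the sham operation, 0.0742% after orchiectomy and 4.53% in the average over operations.

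Genes that follow feeding and glucocorticoids were read from 21 genes, all tested. Of all tested genes orchiectomy raised 7.88% and lowered 6.46% in normoxia. Under intermittent hypoxia it raised 1.31%, and in the average over exposures 11.8% rose and 10.1% fell. Orchiectomy in normoxia raised Egr1 by 1.65 ± 0.43 (edgeR BH-adjusted p = 0.0174) and Srebf1 by 1.61 ± 0.43 (edgeR BH-adjusted p = 0.0193), and lowered Fkbp5, a glucocorticoid receptor target, by 0.84 ± 0.26 (edgeR BH-adjusted p = 0.0393). Under intermittent hypoxia it raised Egr1 by 2.33 ± 0.41 (edgeR BH-adjusted p = 0.0034) and Pdk4 by 2.29 ± 0.53 (edgeR BH-adjusted p = 0.0246), which was at 1.44 without ORX_IH mouse 1 (edgeR BH-adjusted p = 0.0953). Leaving out 1 library ended the normoxic call for Fkbp5 in 7 of 19 fits and those for Egr1 and Srebf1 in 2 each. All 3 ended without the muscle-high libraries, with Egr1 at 1.63, Srebf1 at 1.52 and Fkbp5 at -0.94, and Pdk4 under intermittent hypoxia was then at 0.56 (edgeR BH-adjusted p = 0.455). In the average over exposures Egr1, Srebf1 and Pdk4 rose and Pck1, a gluconeogenic enzyme, fell by 0.82 ± 0.26 (edgeR BH-adjusted p = 0.0299). Leaving out 1 library ended the averaged call for Pdk4 in 15 of 19 fits, with values from 0.65 to 1.20, that for Srebf1 in 9, and that for Pck1 in 5, while Egr1 kept it in all 19. Without the muscle-high libraries Egr1 alone of the 4 was called, and Pdk4 was at 0.26. The averaged calls for Srebf1 and Pdk4 also ended with limma-voom and with limma-trend on the authors' log2 values. Under intermittent hypoxia the call for Egr1 ended with limma-voom.

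Averaged over operations, intermittent hypoxia lowered 3 of the 21, against 2.57% of all tested genes. Igfbp1 fell by 1.55 ± 0.37 (edgeR BH-adjusted p = 0.0252), Angptl4, a lipoprotein lipase inhibitor induced by fasting, by 0.96 ± 0.23 (edgeR BH-adjusted p = 0.027), and Cpt1a, the carrier step of fatty acid oxidation, by 0.39 ± 0.07 (edgeR BH-adjusted p = 0.00439). Srebf1, named here after its value was seen, rose by 1.085 ± 0.29 (edgeR BH-adjusted p = 0.0391). The calls for Igfbp1, Angptl4, Cpt1a and Srebf1 ended without the 4 muscle-high libraries, with values of -1.62, -0.76, -0.37 and 1.18. Those for Igfbp1, Angptl4 and Srebf1 also ended without the acinar-high libraries.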

How the data were processed

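Poly(A) RNA of whole liver was sequenced from strand-marked libraries, per the labels' protocols. Per the submitters' processing notes the tools were bcl2fastq 2.20, fastp 0.23.2, FastQC 0.11.9, MultiQC 1.12 and kallisto 0.46.1, with build GRCm39. The authors deposited estimated counts per gene, not scaled for depth, and 27.5% of them were not whole. The authors also deposited log2 values scaled by TMM, per the file name, with an F-statistic (a score per gene), a p-value and a q-value for any difference among groups; their test is not given there.

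Here the estimated counts were rounded and fitted with edgeR 4.0.16 in R 4.3.3 (TMM, filterByExpr with a minimum count of 10, 1 quasi-likelihood fit over 4 groups and 16164 genes, 7 contrasts, BH adjustment over all genes, calls under 0.05). Standard errors are the log2 fold change over the square root of F, and intervals are at a nominal 95% by the normal distribution. They are narrower than the F-test would give, and the counts of intervals within 2-fold rest on them. Levels are counts-per-million (CPM) with TMM-scaled library sizes, and permutation tests and correlations (1e+05 draws) used log2 CPM with a prior count of 1, in Python 3.11.15 with scipy 1.17.1. DESeq2 1.42.0 and limma 3.58.1 (voom, and trend on the authors' log2 values), other scalings and filters and fits without single libraries were alternatives. The code was tested on simulated data.

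Members and gene lists were chosen with earlier results of these data known. By the rule for named genes, each called member and Arntl, Nr1d1, Dbp and Per2 are given in every library, the other members by means and ranges, and at most the 4 called genes with the smallest p per contrast are named from each other list. No within-group pair of libraries looked like 1 library deposited again, with chi-square per degree of freedom from 18.5 to 186 over 36 pairs. Each library is a separate mouse, per the labels. A count of 3 corresponds to at most 0.102 CPM, which covers counting error only. A result of the feeding list is not reported here.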

Additional observations from a re-analysis of the deposited data

Results flagged for a closer look

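Of 112 groups of libraries checked, 28 genes in 4 groups, 4 held a liver that stood apart from the others, and chance flags about 5% of such groups. All 4 were Sham_IH mouse 4. In that liver Nr1d2 stood at 68.5 CPM against 37.1 to 44.0 CPM in the other 4 Sham_IH livers, and Tef at 150.5 CPM against 66.2 to 82.5 CPM. Ciart stood at 7.83 CPM against 1.63 to 2.23 CPM, and Wee1 at 11.6 CPM against 6.11 to 7.30 CPM. In the same liver Arntl was the lowest of its group at 5.73 CPM. Leaving the liver out ended the call for Bhlhe41 after orchiectomy averaged over exposures, at -0.62.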

How the results depend on the processing

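Over 13 alternatives besides leaving out single libraries no result changed direction. The count of clock genes called after orchiectomy in normoxia, 2, became 4 with no scaling factors (all higher, Clock not among them), 3 with DESeq2, 1 with library numbers 1 to 16 only, 1 without the acinar-high or the acute phase-high libraries, 1 with the compared groups only and 0 without the muscle-high libraries. Over all genes the normoxic count, 2319, became 2734 with no scaling factors, 3064 with DESeq2 and 1098 with library numbers 1 to 16 only. It was 1101, 1475 and 422 without the acinar-high, acute phase-high and muscle-high libraries, and 918 with the compared groups only. These fits tested 15342 to 16697 genes. Under intermittent hypoxia the count of 0 clock genes became 1 (Nono) with no scaling factors, and that over all genes went from 465 to 971. For orchiectomy averaged over exposures 5 became 1 with library numbers 1 to 16 only, 2 without the acinar-high or the acute phase-high libraries and 0 without the muscle-high libraries, and it was 6 with DESeq2, 6 with no scaling factors (5 higher, 1 lower) and 4 with no filter on low counts. Over all genes the count in that average, 3549, became 2438 with library numbers 1 to 16 only. It was 2063, 2981 and 1306 without the acinar-high, acute phase-high and muscle-high libraries. It was 4142 with DESeq2, 4722 with no scaling factors and 2985 with no filter. For intermittent hypoxia averaged over operations 1 clock gene became 0 without the muscle-high or the acute phase-high libraries. The count over all genes, 733, was then 8 and 694. The causes were not tested; these subsets hold fewer samples. Without single libraries the 3 counts of clock genes lay between 1 and 3, 2 and 5, and 0 and 1. The last was at 0 without Sham_Nx mouse 3 or 5. Pearson's r with Arntl lay between 0.58 and 0.83 for Clock, -0.55 and -0.31 for Nr1d1, and 0.094 and 0.69 for Nfil3.

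Of 27 pairs of same-numbered mice 6 had r over 0.1 over 5000 genes. Their r lay between -0.385 and 0.564, against -0.483 to 0.433 for differently numbered pairs. The highest, 0.564, joined Sham_IH mouse 4 and ORX_IH mouse 4. The numbers were not used to pair the samples, and these values cannot exclude a shared order for some of them. With the replicate block the averaged orchiectomy count was 4, the call for Cipc ending at -0.17 (edgeR BH-adjusted p = 0.0713), and the other counts were 2, 0, 0, 0, 1 and 0. Over all genes DESeq2 called 397 for intermittent hypoxia after sham against 49, 706 after orchiectomy against 12, and 62 for the interaction against 0; the compared groups only gave 483 against 49.

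Group sizes of 4 and 5 and the spread of Per1, Dbp, Npas2 and Usp2 between mice leave wide intervals for these genes. The collection time of each liver was not used here.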
